A study of Mus musculus with 3 samples.

Results

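The TNF superfamily is the set of cytokines related to tumour necrosis factor, together with the receptors that bind them. It was measured here in endothelium sorted from the glomeruli, the filtering capillaries of the kidney, of grown mice. Members were chosen by gene symbol alone, from the families named Tnfsf and Tnfrsf and from their members with older names such as Tnf, Fas and Cd40. The choice took 43 genes of the 19938 that were named by a probe set of a single gene, and each was measured by 1 probe set. These 43 genes encode 16 ligands and 27 receptors. A further probe set that names Tnfsf12, Tnfsf13 and their read-through Tnfsfm13 together was left out by the rule, so the ligands TWEAK and APRIL were not measured on their own.

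The cells came from adult mice that carry the transgene Tg(TIE2GFP)287Sato, in which the promoter of Tek (Tie2) drives green fluorescent protein, on a mixed background that is primarily CD-1, with the sex not given and no treatment. Glomeruli were sieved from collagenase-treated cortex and dissociated with trypsin, and GFP positive cells were sorted. There were 3 samples, replicates 1, 3 and 5, each from 1 kidney on 1 array without pooling, and all form 1 group, so no comparison between groups can be made. The Tie2 promoter is known to be active in some blood cells as well as in endothelium, and fewer cells of a type cannot be told apart from less RNA per cell in such samples.

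Ligands of this family are mostly membrane proteins that act as trimers on neighbouring cells, and several are shed by proteases. Their receptors carry cysteine-rich repeats outside the cell. Some receptors have a death domain inside the cell that can recruit caspases, others bind TRAF adaptors and activate NF-kappaB, and decoy receptors bind ligand without passing on a death signal. In endothelium, TNF acting through Tnfrsf1a is the classical inducer of leukocyte adhesion molecules, whereas most co-stimulatory members are known from lymphocytes and antigen presenting cells.

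Levels are log2 signals, given for single arrays in the order of replicates 1, 3 and 5, or as mean ± SD (n = 3). Each mean was compared with 2 fixed levels by limma, with Benjamini-Hochberg adjustment over all 21789 probe sets of a single gene and a threshold of 0.05. The first level was a signal of 100 (6.64 on the log2 scale), the number that the study used as its filter on raw values. The second was the 95th percentile of 1035 probe sets for olfactory receptors, genes that are not known for use in endothelium, which lay at 4.85 (a signal of 28.9). Different probe sets bind RNA with different strength, so values of different genes that are given side by side do not rank their RNA. This limit also applies to the calls, as the second level comes from probe sets of other genes.

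Most of the family was measured at low signals. By limma, 3 of the 43 genes (6.98%) were called above 100, 35 (81.4%) below and 5 neither, where 15.8% of all 21789 probe sets were called above, 72.5% below and 11.6% neither. The 3 above were the death receptor gene Fas and the receptor genes Tnfrsf22 and Tnfrsf26. The 5 called neither were Tnfrsf23, the TNF receptor gene Tnfrsf1a, Cd40, the BAFF receptor gene Tnfrsf13c and the ligand gene Tnfsf10, which encodes TRAIL. Against the olfactory receptor level, 15 of the 43 (34.9%) were called above, 15 below and 13 neither, beside 44.4% of all probe sets above, 36.2% below and 19.4% neither. The median over the 43 means was 4.75, beside 5.04 over all probe sets.

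**Figure D1:**
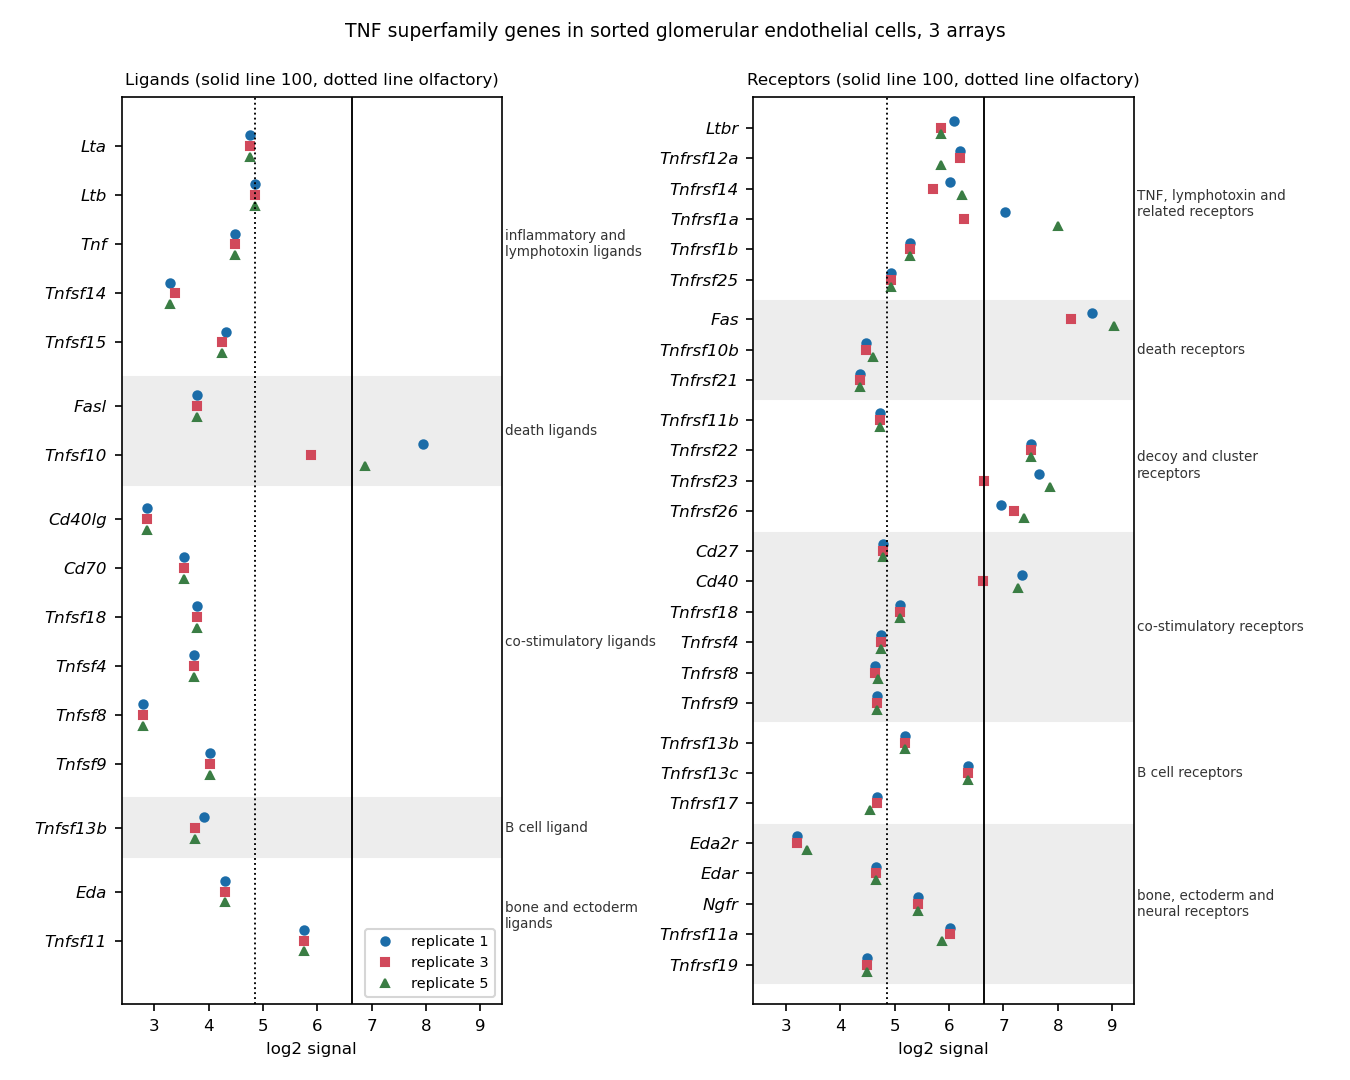
Log2 signal (horizontal axis) of each of the 43 TNF superfamily genes on each of the 3 arrays (1 symbol per replicate), ligands on the left and receptors on the right, grouped by role, with the signal of 100 as a solid line and the olfactory receptor level as a dotted line. All 3 values of Fas, Tnfrsf22, Tnfrsf23 and Tnfrsf26 lie to the right of the solid line, that of Tnfrsf23 on replicate 3 only just, and among ligands only Tnfsf10 crosses it.

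The sequences before the start sites of 4 of the members are shown, Fas as the gene above 100 that has a promoter in RefSeq's table, and Tnfrsf1a, Tnfrsf23 and Tnfsf10 as the genes that differed by over 2-fold between arrays. They are the 250 bases before the RefSeq start in GRCm38.p6, 5′ to 3′ on the strand of the gene. They lie at chr19:34290409-34290658 (plus strand), chr6:125349473-125349722 (plus), chr7:143685876-143686125 (minus) and chr3:27316827-27317076 (plus). Capitals mark matches to short motifs, which were searched on both strands. The motif of ETS factors was searched as CCGGAA. The GC box of Sp1 and its relatives was searched as GGGCGG. The TATA motif was searched as TATAAA. The GAS motif bound by STAT factors was TTCNNNGAA, and the ISRE core bound by interferon regulatory factors was GAAANNGAAA. The NF-kappaB consensus was searched as well. On the other strand an ETS match begins with the same letters as a GAS match, so that these can overlap.
Fas: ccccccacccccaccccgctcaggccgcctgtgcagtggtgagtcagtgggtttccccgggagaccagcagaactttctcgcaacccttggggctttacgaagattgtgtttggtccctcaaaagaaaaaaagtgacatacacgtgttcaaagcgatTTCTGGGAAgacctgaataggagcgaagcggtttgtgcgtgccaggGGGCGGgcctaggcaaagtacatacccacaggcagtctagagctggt
Tnfrsf1a: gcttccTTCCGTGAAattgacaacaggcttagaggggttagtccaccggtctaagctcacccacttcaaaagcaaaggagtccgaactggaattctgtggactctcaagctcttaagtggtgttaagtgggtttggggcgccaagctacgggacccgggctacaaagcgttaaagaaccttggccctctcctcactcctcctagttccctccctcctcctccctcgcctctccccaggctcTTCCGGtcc
Tnfrsf23: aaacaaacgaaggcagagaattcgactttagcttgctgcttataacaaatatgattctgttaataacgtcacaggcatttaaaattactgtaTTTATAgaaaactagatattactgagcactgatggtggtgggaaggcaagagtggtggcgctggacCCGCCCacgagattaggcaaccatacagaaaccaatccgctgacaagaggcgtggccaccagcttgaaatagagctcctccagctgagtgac
Tnfsf10: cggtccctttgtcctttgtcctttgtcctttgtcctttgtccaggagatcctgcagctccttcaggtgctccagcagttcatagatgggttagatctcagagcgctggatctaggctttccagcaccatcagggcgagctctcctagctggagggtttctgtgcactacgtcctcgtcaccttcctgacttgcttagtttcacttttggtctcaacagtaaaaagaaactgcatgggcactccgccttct

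Fas held a GC box from 47 to 42 bases and a GAS match from 93 to 85 bases before the start. Tnfrsf1a held an ETS match on the other strand from 9 to 4 bases and a GAS match from 244 to 236 bases before it. Tnfrsf23 held a GC box from 92 to 87 bases and TATAAA from 158 to 153 bases before the start, both on the other strand. No searched motif was in the window of Tnfsf10. A match is a run of letters and not a measured binding site, and no binding was measured here.

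RefSeq held 38 promoters for 34 of the 43 genes. The NF-kappaB consensus was in 4 of these 38 windows (10.5%), those of Ltb, Tnfrsf25, Tnfrsf8 and Tnfrsf9, and in 7.25% of all 32851 promoters of the same length. The GAS motif was in 8 of 38 (21.1%), among them those of Fas, Tnfrsf1a and Tnfrsf1b, and in 7.02% of all. The ISRE core was in 4 of 38 (10.5%, against 2.98% of all) and the ETS motif in 6 of 38 (15.8%, against 12% of all). The GC box was in 17 (44.7%, against 32.7%) and TATAAA in 7 (18.4%, against 12.4%). Some genes have more than 1 promoter, and these shares are a description without a test.

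Cell markers were checked beside these calls, where 15.8% of all probe sets were above 100 and 72.5% below. Of 12 endothelial markers 9 were called above 100, among them Cdh5 and Pecam1, while Vwf and Plvap were below and Cldn5 was neither. None of 21 leukocyte markers was called above 100 by limma, and the count was also 0 at an unadjusted p under 0.05 and with limma's standard variance prior. Ptprc, Cd3e, Ms4a1 and Csf1r were at 4.77 ± 0.18, 4.53, 3.38 and 4.24. Against the olfactory receptor level 3 of the 21 (14.3%) were above, 6 neither and 12 below. Over all probe sets 44.4% were above this level and 36.2% below. The 3 above were the macrophage genes Cd68, C1qa and C1qc at 5.29, 5.33 and 5.36. Tnfrsf1b, called above the same level, was at 5.27. The summed linear signals of the leukocyte markers were 474, 456 and 445 on replicates 1, 3 and 5. Those of the endothelial markers were 17623, 11788 and 20100, the lowest on replicate 3. In the lists for mesangial cells (7 genes), tubules (8) and platelets and red cells (6) no gene was above 100, again with 0 at an unadjusted p under 0.05 and 0 with the standard prior, and of 6 podocyte genes Podxl alone was above. At the lower level 4 of the 6 platelet and red cell genes, 4 podocyte genes and 2 tubule genes were called above. The part of such cells in the family signals was not tested.

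Fas, the receptor through which Fas ligand triggers apoptosis, was called above 100. It had 8.63, 8.24 and 9.04, so that every array lay above 6.64 by over 1 log2 unit. The mean of 8.64 ± 0.40 was 2.00 above the level (95% interval of the mean 8.09 to 9.19, adjusted p = 0.000842). Its call above held for a level of 200 as well. The window before its start, printed above, held a GC box and a GAS match. Its ligand gene Fasl read 3.78 on each array and was called below both levels. The other receptors with a death domain in this group were low. Tnfrsf10b, the mouse receptor through which TRAIL signals death, was at 4.51 ± 0.07 and was below 100 and neither at the olfactory receptor level. Tnfrsf21 (DR6) read 4.37 on each array and was below both.

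A run of neighbouring receptor genes on chromosome 7 lay around or above 100. In the RefSeq annotation of GRCm38.p6 the genes Tnfrsf26, Tnfrsf22 and Tnfrsf23 follow one another with no other protein-coding gene between them. Tnfrsf22 and Tnfrsf23 encode decoy receptors that bind TRAIL and lack a death domain, and Tnfrsf26 is their relative. Tnfrsf22 had 7.50, 7.51 and 7.50, the mean being 0.86 above the level (adjusted p = 0.00249). These values lay within 1.01-fold of each other, and those of replicates 1 and 5 were identical. The spread behind this call therefore came almost wholly from the model. Tnfrsf26 had 6.95, 7.19 and 7.37, with a mean of 7.17 ± 0.21 (adjusted p = 0.0255). That call was lost without replicate 5 (adjusted p = 0.059) and with limma's standard variance prior (adjusted p = 0.0502). Tnfrsf23 had 7.66, 6.65 and 7.85, all above 6.64, yet its mean of 7.38 ± 0.64 was called neither (adjusted p = 0.0678). Without replicate 3 it was called above (adjusted p = 0.00175), and without replicate 1 or replicate 5 it stayed neither (adjusted p = 0.203 and 0.21). The 3 genes are related in sequence, and whether their probes bind each other's transcripts was not tested.

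The 4th gene of the decoy group, Tnfrsf11b, encodes osteoprotegerin, the soluble decoy of RANKL. It read 4.73 on each array, below 100 and neither at the olfactory receptor level. In all, the family held 7 runs of adjacent protein-coding genes with 18 members. In the other 6 runs every one of 15 genes was called below 100, as were 81.4% of the family and 72.5% of all probe sets. Whether genes in runs differ from the other members was not tested. They are Tnfsf4, Tnfsf18 and Fasl on chromosome 1, Ltb, Tnf and Lta and then Tnfsf9, Cd70 and Tnfsf14 on chromosome 17, and Tnfsf15 with Tnfsf8, Tnfrsf1b with Tnfrsf8 and Tnfrsf4 with Tnfrsf18 on chromosome 4.

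Both receptors of TNF itself were above the olfactory receptor level. Tnfrsf1a, which encodes TNFR1, the receptor with a death domain, had 7.02, 6.27 and 8.01. Its mean of 7.10 ± 0.87 was called neither against 100 (95% interval 6.07 to 8.13, adjusted p = 0.303) but was above the lower level (adjusted p = 0.006). Replicates 1 and 5 lay above 100 and replicate 3 below, a range of 3.33-fold. Without replicate 3 the gene was called above 100 (adjusted p = 0.0467). Without replicate 1 or replicate 5 it stayed neither (adjusted p = 0.415 and 0.992). Tnfrsf1b, which encodes TNFR2 and has no death domain, read 5.27 on each array. It was called below 100 (adjusted p = 0.000499) and above the olfactory receptor level (adjusted p = 0.0305).

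Receptors of the lymphotoxin and related ligands were between the 2 levels. The lymphotoxin beta receptor gene Ltbr had 6.09, 5.86 and 5.86, with a mean of 5.94 ± 0.14. Tnfrsf12a, the receptor of TWEAK, had 6.21, 6.21 and 5.86, with a mean of 6.09 ± 0.20. Tnfrsf14, the receptor of LIGHT known as HVEM, had 6.01, 5.70 and 6.23, with a mean of 5.98 ± 0.27. All 3 were called below 100 and above the olfactory receptor level, and no array of any of them reached 6.64. With the standard prior Tnfrsf14 was called neither against 100. Adjusted p-values against 100 were 0.00689, 0.0213 and 0.017 for Ltbr, Tnfrsf12a and Tnfrsf14, and against the olfactory receptor level 0.00221, 0.00197 and 0.00363. Tnfrsf25 (DR3), the receptor of the ligand encoded by Tnfsf15, read 4.93 on each array and was neither at the lower level.

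**Figure D2:**
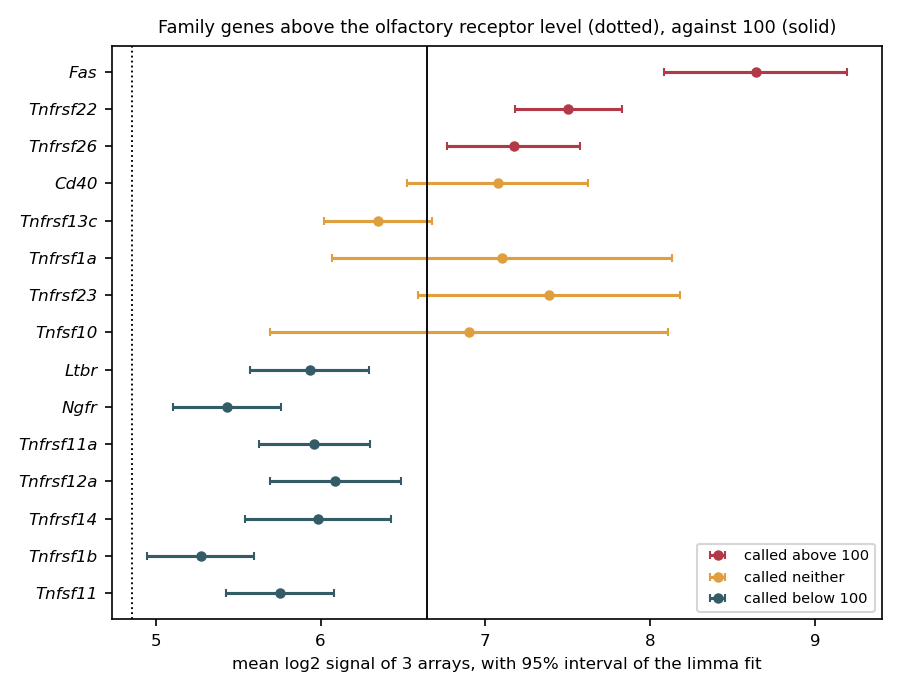
Mean log2 signal of 3 arrays with its 95% interval from the limma fit (horizontal axis) for the 15 family genes called above the olfactory receptor level (dotted line), coloured by their call against 100 (solid line). The intervals of Fas, Tnfrsf22 and Tnfrsf26 lie wholly above 6.64, those of 5 genes cross it and those of the other 7 lie below.

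Of the 6 co-stimulatory receptors Cd40 was the one not called below 100. CD40 is the receptor by which T cells activate B cells and macrophages, and endothelium is known to carry it too. It had 7.34, 6.63 and 7.26, with replicate 3 just under 6.64 and the others above. The mean of 7.07 ± 0.39 was called neither against 100 (95% interval 6.53 to 7.62, adjusted p = 0.104) and above the olfactory receptor level (adjusted p = 0.000928). Without replicate 3 it was above 100 as well (adjusted p = 0.00717), and at a level of 200 it was called below (adjusted p = 0.0481). Leaving out replicate 1 or replicate 5 left it neither against 100 (adjusted p = 0.278 and 0.26). The remaining 5 receptors of this group, Cd27, Tnfrsf4, Tnfrsf8, Tnfrsf9 and Tnfrsf18, had means from 4.66 to 5.09. Each was called below 100 and neither at the lower level. The leukocyte markers given above were measured on the same arrays, and their part in the Cd40 signal was not tested.

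Among the B cell receptors, Tnfrsf13c, which encodes the BAFF receptor, read 6.35 on each array. It was called neither against 100 (adjusted p = 0.0744) and above the olfactory receptor level (adjusted p = 0.000684). The value being the same on all arrays, its call depended on the assumed spread, and it turned to below 100 with the standard variance prior, after quantile normalization (adjusted p = 0.000882) and after centring (adjusted p = 0.00525). The B cell markers Cd79a, Cd79b and Ms4a1 read 3.12, 4.36 and 3.38 on each array. Tnfrsf13b (TACI) read 5.19 on each array, and Tnfrsf17 (BCMA) was at 4.64 ± 0.07. Both were below 100 and neither at the lower level.

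Receptors known from bone, skin appendages and neurons were all called below 100. Tnfrsf11a, which encodes RANK, had 6.01, 6.01 and 5.87, with a mean of 5.96 ± 0.08 (adjusted p = 0.0063). Ngfr, the low-affinity neurotrophin receptor, read 5.43 on each array. Both were above the olfactory receptor level, with adjusted p = 0.0017 and 0.0113. The ectodysplasin receptor genes Edar, at 4.65, and Eda2r, at 3.27 ± 0.10, and Tnfrsf19 (TROY), at 4.48, were neither, below and below that level.

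All ligands but Tnfsf10 were called below 100. Of 16 ligands, limma called 0 above 100, 15 below and 1 neither, and the count above was also 0 at an unadjusted p under 0.05 and with the standard prior. Of 27 receptors 3 were above (11.1%), 20 below (74.1%) and 4 neither. Over all probe sets these shares were 15.8% above and 72.5% below, so that the share of receptors called below lay near that of all probe sets, and for ligands it was 93.8%. Against the olfactory receptor level 2 ligands (12.5%) and 13 receptors (48.1%) were above, beside 44.4% of all probe sets. The share of receptors above thus lay near that of all probe sets. Below this level were 12 ligands and 3 receptors, beside 36.2% of all probe sets. The median of the means was 3.91 for ligands and 5.19 for receptors. Whether the 2 sides differ was not tested.

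Tnfsf10, which encodes TRAIL, a ligand of Tnfrsf10b and of the decoy receptors, had 7.94, 5.88 and 6.88. The 4.17-fold range between replicates 1 and 3 was the widest of the 43 genes, and only replicate 3 lay under 6.64. Its mean of 6.90 ± 1.03 was called neither against 100 (95% interval 5.70 to 8.11, adjusted p = 0.601) and above the olfactory receptor level (adjusted p = 0.013). Tnfsf11, which encodes RANKL, read 5.75 on each array, below 100 (adjusted p = 0.00219) and above the olfactory receptor level (adjusted p = 0.00287). These were the 2 ligands called above the lower level.

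The inflammatory ligands were at or under the olfactory receptor level. Tnf read 4.48 on each array, below 100 (adjusted p = 0.000128) and below the olfactory receptor level (adjusted p = 0.0434). Lta and Ltb, the lymphotoxin genes, read 4.77 and 4.85 and were neither at that level, and the value of Ltb is the level itself. Tnfsf14 (LIGHT), at 3.32 ± 0.05, and Tnfsf15, at 4.27 ± 0.04, were below both levels. So were the B cell ligand gene Tnfsf13b (BAFF), at 3.81 ± 0.10, and Eda, which encodes ectodysplasin, at 4.31.

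All 6 co-stimulatory ligands were called below both levels, and each read the same on all arrays. They were Cd40lg at 2.86, Cd70 at 3.56, Tnfsf4 at 3.72, Tnfsf8 at 2.80, Tnfsf9 at 4.02 and Tnfsf18 at 3.78. These ligands are known from activated T cells and antigen presenting cells. The probe set shared by Tnfsf12, Tnfsf13 and Tnfsfm13, which was not among the 43 and was not tested, had 7.39, 7.36 and 7.62, and which of the 3 transcripts it measured cannot be told apart.

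Values that were identical on all arrays limit what these calls can say. They were found for 25 of the 43 genes (58.1%) and for 54.1% of all probe sets, and for these the spread came from the model alone. Many of the values recurred across probe sets as well. Of the 25, 23 had a value that at least 1 other probe set of the table also had on all arrays. The value of Tnf was that of 189 probe sets in the table, that of Tnfsf9 of 255, that of Ltb of 137 and that of Fasl and Tnfsf18 alike of 76. Such values also lie behind calls above the olfactory receptor level. The value of Ngfr was that of 33 probe sets, that of Tnfrsf13c of 10 and that of Tnfsf11 of 9. Tnfrsf1b and Tnfrsf21 had values of their own.

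Differences between the arrays were found in few members. A range of over 2-fold was found for Tnfsf10, Tnfrsf1a and Tnfrsf23, which are 3 of 43 genes (6.98%), and for 5.73% of all probe sets. Of the 7 family genes with 3 different values, 6 were lowest on replicate 3. These were Fas, Cd40, Tnfrsf1a, Tnfrsf14, Tnfrsf23 and Tnfsf10, while Tnfrsf26 was lowest on replicate 1. Over all 4406 probe sets with 3 different values 41.4% were lowest on replicate 3, and over the 2870 of these not called below 100 45.5% were. Among the endothelial markers with 3 different values, 7 of 9 were lowest on replicate 3, and Cldn5 was highest there. Whether the lower family values on replicate 3 are tied to its lower endothelial marker signal was not tested. Without replicate 3, 6 family genes instead of 3 were called above 100, the added ones being Cd40, Tnfrsf1a and Tnfrsf23, and 1 gene instead of 3 differed by over 2-fold.

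**Figure D3:**
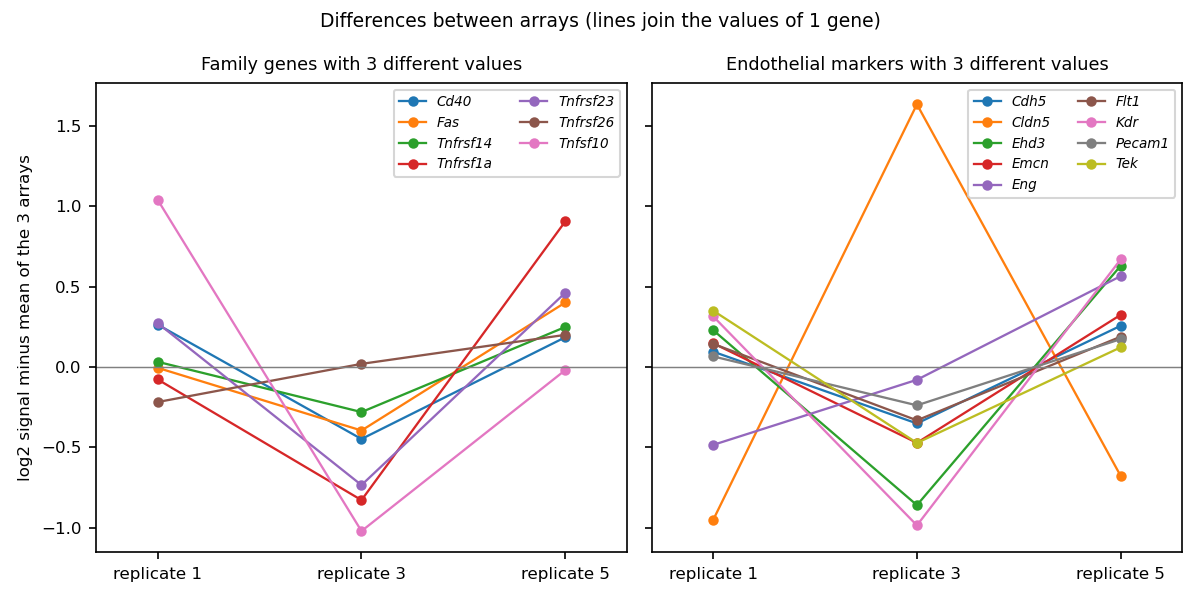
Log2 signal minus the mean of the 3 arrays (vertical axis) on each replicate (horizontal axis) for the 7 family genes (left) and the 9 endothelial markers (right) with 3 different values, with lines joining the values of 1 gene and no order among replicates. On replicate 3, 6 of 7 family genes and 7 of 9 markers have their lowest value, and Cldn5 has its highest.

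Genes of the pathway outside the family were taken from 6 lists. These lists cover steps downstream of the receptors and also the shedding of family members. Of their 80 genes 70 were measured, with 15 called above 100, 41 below and 14 neither, and with a median of the means of 5.75. The share above was 21.4%, beside the 15.8% over all probe sets, and without replicates 1, 3 or 5 the number above was between 11 and 17. Against the olfactory receptor level 51 of the 70 (72.9%) were above, 11 neither and 8 below, beside 44.4% of all probe sets above. Differences of these shares from those of the family or of all probe sets were not tested.

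The genes for caspase-8, its adaptor and its inhibitor were called above 100. Casp8, the caspase recruited by death receptors, had 9.62, 9.15 and 9.78 (adjusted p = 0.000178 against 100). Cflar, which encodes FLIP, the inhibitor of that recruitment, had 11.77, 11.38 and 11.15 (adjusted p = 6.9e-05). Both lay above 100 on every array by over 2 log2 units. For Cflar these are the values of the probe set of highest mean among 3, and the others are not given here. Fadd, the adaptor that links Fas to caspase-8, was above at 7.15 ± 0.15 (adjusted p = 0.022). Xiap, an inhibitor of caspases, was above at 8.07 ± 0.90 (adjusted p = 0.0244), with its lowest value of 7.02 on replicate 3. With the standard prior the call of Xiap was lost (adjusted p = 0.115). Of the 7 measured genes of the death machinery 3 (42.9%) were above 100, 3 (42.9%) below and 1 neither. Over all probe sets 15.8% were above and 72.5% below, and the difference was not tested. The 3 death machinery genes below were Bid, at 4.52 ± 0.06, Ripk3, at 5.61, and Mlkl, at 6.16, the last 2 being genes of necroptosis. Ripk3 and Mlkl were above the olfactory receptor level, and Bid was neither.

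Of 15 measured adaptor genes 2 were above 100, Fadd and Sharpin, a subunit of the linear ubiquitin ligase, at 7.58 ± 0.23. Another 10 were below and 3 neither. The shares of 13.3% above and 66.7% below lay near the 15.8% and 72.5% of all probe sets. Tradd, the adaptor of Tnfrsf1a, was below 100 at 5.49, as were Traf1 at 3.85 ± 0.24 and Traf2 at 5.15. Tradd was above the olfactory receptor level, Traf2 was neither and Traf1 was below it. Of the 15 genes, 13 (86.7%) were above that lower level, beside 44.4% of all probe sets, and the difference was not tested.

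Kinases and NF-kappaB genes were split, where 15.8% of all probe sets were above 100 and 72.5% below. Of 12 kinase genes on the way to NF-kappaB and JNK, 4 (33.3%) were above 100, 4 (33.3%) below and 4 neither. Above were Map3k7 (TAK1) at 7.66 ± 0.20 and its partner gene Tab2 at 8.10, Map3k5 (ASK1) at 7.02 and the JNK gene Mapk9 at 7.22. Tab1 and Tab3 were below at 5.21 and 5.47, and Ikbkb, a kinase of the inhibitor of NF-kappaB, was neither at 6.46. Tab1, Tab3 and Ikbkb were each above the olfactory receptor level. With the standard prior Ikbkb was called below 100, and Mapk14, at 6.88 ± 0.03, was above 100 (adjusted p = 0.00402). Of 12 NF-kappaB factors and brakes 3 (25%) were above 100, 7 (58.3%) below and 2 neither. How these shares differ from that of all probe sets was not tested. The factor gene Rela was above at 7.46 ± 0.14, the inhibitor gene Nfkbia at 8.09 and the deubiquitinase gene Otulin at 7.60 ± 0.51, whose call was lost with the standard prior (adjusted p = 0.0846). Relb at 4.69, Rel at 5.23 and Nfkb2 at 5.62 ± 0.02 were below 100. At the olfactory receptor level Rel and Nfkb2 were above and Relb was neither.

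Proteases that shed members of the family were measured too. Adam17, the enzyme that cleaves TNF and its receptors from the membrane, had 8.61, 6.22 and 8.12. Replicate 3 alone lay under 6.64, and the mean of 7.65 ± 1.26 was called neither (adjusted p = 0.138). Adam10 was above 100 at 8.60 ± 0.37, and Timp3, which encodes an inhibitor of Adam17, was above at 10.94 ± 0.20. Rhbdf1 and Rhbdf2, whose products escort Adam17, were below 100 at 5.46 ± 0.13 and 5.55, and both were above the olfactory receptor level. Of the 6 genes in this list 2 (33.3%) were above 100, 3 (50%) below and 1 neither. Over all probe sets 15.8% were above and 72.5% below, and the difference was not tested.

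Among 18 measured genes that were listed as endothelial targets of NF-kappaB, 1 was above 100, 14 below and 3 neither. Whether each of them responds to TNF in these cells was not tested. The share below, 77.8%, lay near the 72.5% of all probe sets. The 1 above was Tnfaip2, with 7.67, 7.97 and 8.24 (adjusted p = 0.00185). Icam1 was below at 5.73 and Sele at 4.97 ± 0.39, whereas Vcam1, with 5.04, 6.75 and 5.03, was neither. The Vcam1 value on replicate 3 alone was over 6.64. At the olfactory receptor level Icam1 was above, and Sele and Vcam1 were neither. These adhesion genes are induced in activated endothelium, and no treated or control sample was part of the design.

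**Figure D4:**
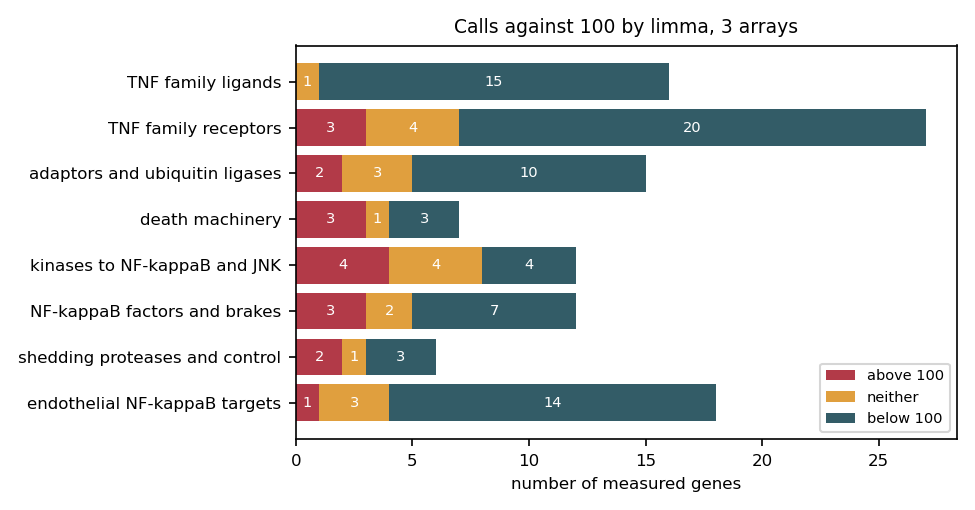
Number of measured genes (horizontal axis) called above 100, neither or below 100 by limma over 3 arrays, for the ligands and receptors of the TNF family and for 6 lists of genes of the pathway. None of the 16 ligands and 3 of the 27 receptors are above, and the death machinery has 3 of 7 above. Over all probe sets 15.8% are above.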

How the data were processed

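Once amplified, RNA from the sorted cells was hybridised to Mouse Gene ST arrays from Affymetrix. The authors deposited log2 signals per probe set. Expression Console is the tool in the submitters' processing notes, and the study names RMA. Its version, and which arrays it normalized as a set, are not given in the sources used. Medians were 4.85, 4.80 and 4.79 on replicates 1, 3 and 5, and the scale need not be that of the raw filter of 100.

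Of 35557 probe sets 21789 name 1 gene in the platform annotation, 1621 several and 12147 none. By Entrez identifier 21698 matched RefSeq (GRCm38.p6), with all 43 family genes. The members were taken by gene symbol and not by value. Earlier results of these data were known when the members, the lists and the variance prior were chosen. Every family gene is named, with each array's value for those not below 100, above the olfactory receptor level or over 2-fold between arrays. Pathway genes above 100 are named, with up to 3 others per list in list order, each by its probe set of highest mean.

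An intercept was fitted with limma 3.58.1 (R 4.3.3) and tested two-sided. Its variance prior (SD 0.288, 2.03 degrees of freedom) came from the 4406 probe sets with 3 different values, because the standard prior rests on variances of 0. The study describes its samples as independent biological ones, and the labels do not say whether the kidneys came from different animals. A p-value here rests on the spread between arrays combined with the prior, and the number of arrays limits the precision. Where values were identical on all arrays, the spread came from the prior alone, and the p-value measures none between arrays. Alternatives were the standard prior, levels of 50 and 200, the 90th and 99th percentile of olfactory receptors, quantile normalization, centring, a filter on dim probe sets, averaged probe sets and leaving out each array.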

Additional observations from a re-analysis of the deposited data

How the results depend on the processing

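The level decides the counts. Of the family, 8 genes were above a level of 50 and 1 (Fas) above 200, instead of 3 above 100, and the counts of receptors above were the same 8 and 1. Of the pathway genes 30 were above 50 and 6 above 200, instead of 15, and 20 instead of 41 were below 50. Single genes changed sides with the level: at 200 Cd40 lay 0.57, Tnfrsf22 0.14 and Tnfrsf26 0.47 under it (differences of -0.57, -0.14 and -0.47 on the log2 scale), and at 50 Tnfrsf13c lay 0.71 above it. When only probe sets over the olfactory receptor level on an array were tested, fewer genes were tested. Then 10 family genes, 1 ligand, 9 receptors and 27 pathway genes were called below 100, with 0 family genes below the olfactory receptor level. The filter made that 0 likely in advance, as it kept only probe sets over that level on some array. Below that level there were 24 instead of 15 family genes with the standard prior, 24 after quantile normalization and 28 at the 99th percentile, and the cause was not tested for the first 2.

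Without replicates 1, 3 or 5, between 2 and 6 family genes, all receptors, were above 100, and 1 to 3 differed by over 2-fold. The other counts without an array were 0 ligands above, 15 ligands and 20 receptors below, 13 to 15 family genes above and 13 to 15 below the olfactory receptor level, and 11 to 17 pathway genes above and 40 to 41 below 100. Of 107 alternative counts 89 were within 1.5 times the reported one. The 107 include those from averaging the probe sets of a gene, which could not change the family values. Each of the 43 genes has 1 probe set, so calls could shift only through the prior and the adjustment. With averaging, 16 instead of 15 family genes were above and 16 instead of 15 below the olfactory receptor level. No other count of the family changed. Of the pathway genes, 43 instead of 41 were then below 100. No paired analysis was possible because all arrays form 1 group.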
